A study of Mus musculus with 9 samples.

Results

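The growth hormone (GH) and IGF axis was followed through 9 liver genes, chosen by name: Igf1, Igfals, Ghr, Stat5b, Igfbp1, Igfbp2, Igfbp4, Socs2 and Cish. All 9 symbols matched an entry among the 55335 genes of the deposited table, and all 9 were among the 6755 genes tested, those whose FPKM averaged 1 or more across the mice. Liver RNA came from 9 offspring aged 20 weeks and fasted for 4 h, with 3 mice each conceived naturally (NC-chow, called NC here), by in vitro fertilization with fresh embryo transfer (IVF-chow, called IVF) and by IVF with transfer of frozen and thawed embryos (FET-chow, called FET). The question was whether the way of conception left a mark on the liver of the adult offspring. The labels give the strain as B6D2F2 in every group, and the male sex and the chow diet are those of the study's methods. According to those methods the parents were B6D2F1/J mice, the NC mice came from natural pregnancies, and embryos of both other groups were carried by pseudopregnant ICR females after transfer at the 2-cell stage, so the recipient strain, the hormone treatment of the mothers and the culture step differ from NC along with fertilization. FET embryos were in addition slowly frozen with propanediol and thawed. The labels number the mice 1, 5 and 6 in NC and 2, 3 and 4 in the other groups, and no litter is given for any of them. Of the 9 genes, Socs2 and Cish reached the mean FPKM of 1 only through IVF, since the other 6 mice averaged 0.412 and 0.811 FPKM, so a higher IVF level of these genes was in part set by the filter.

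Growth hormone from the pituitary binds its receptor on hepatocytes, activates the kinase JAK2 and, through it, the transcription factor STAT5B. STAT5B drives the liver's output of IGF1, the circulating growth factor, and of the acid-labile subunit that holds IGF1 in the blood, and it also switches on the inhibitors SOCS2 and CISH, which dampen the receptor in return. IGF binding proteins carry IGF1 and limit its action, and the gene of one of them, Igfbp1, is known to be held down by insulin and to be raised in fasting.

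Promoter sequence is shown for the members in which a DNA motif of one of these regulators was found. Windows from 250 bases before to 50 bases after each annotated start were taken from the RefSeq promoter table of GRCm38.p6, which held 13 windows for 8 of the 9 genes and none for Socs2. They were searched on both strands for TTCNNNGAA, the paired half-sites that STAT5 proteins bind, which reads the same on both strands, and for CAAAACA, the core of the insulin response element bound by FOXO factors. The STAT5-type motif was found in 3 windows of 2 genes, Cish and Igfals, and in 8.3% of all 32851 windows of the table. CAAAACA was found in 1 member window, that of Igfbp1, and in 6.28% of all windows. The 3 stretches below are from the plus strand, with the matches in capitals. They are chr9:107296559-107296688 for Cish, with 1 match at the start itself and another 11 bases after it, chr17:24878131-24878230 for Igfals, with a match 58 bases before its middle start, and chr11:7197637-7197786 for Igfbp1, with a match 108 bases before the start. A further match lay 236 bases before the first start of Igfals.
Cish: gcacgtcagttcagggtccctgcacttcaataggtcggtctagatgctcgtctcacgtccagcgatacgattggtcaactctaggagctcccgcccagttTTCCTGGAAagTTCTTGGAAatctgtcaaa
Igfals: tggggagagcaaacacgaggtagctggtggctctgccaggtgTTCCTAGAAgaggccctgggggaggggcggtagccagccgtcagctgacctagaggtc
Igfbp1: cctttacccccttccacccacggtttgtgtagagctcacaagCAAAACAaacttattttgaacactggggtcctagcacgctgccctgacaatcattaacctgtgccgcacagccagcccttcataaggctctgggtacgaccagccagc

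**Figure D1:**
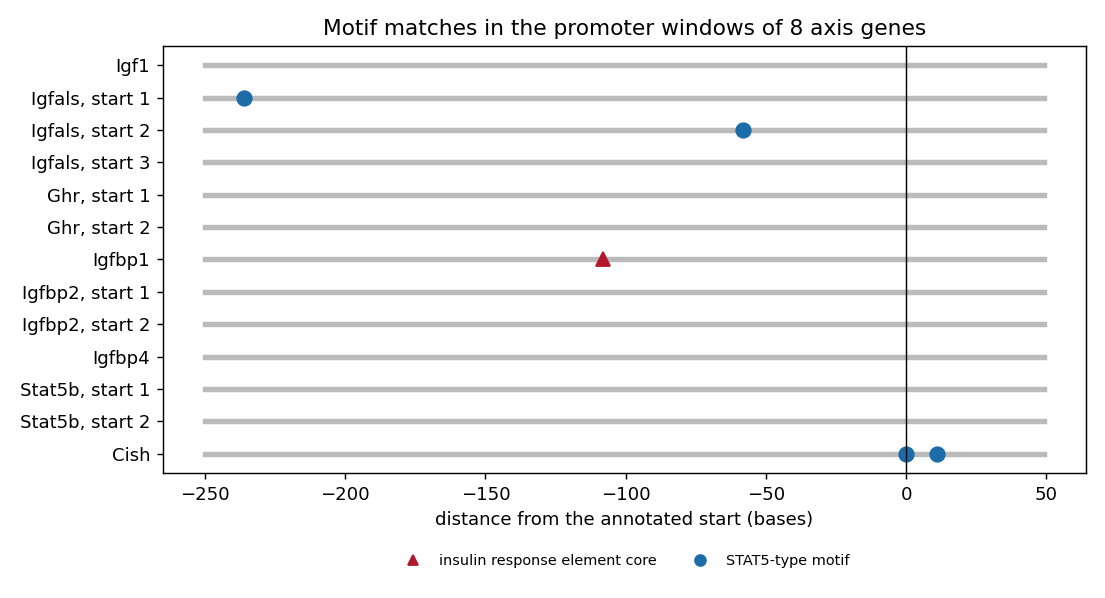
Each grey line is the window of 1 annotated start, from 250 bases before to 50 bases after it (x axis, distance in bases), for the 8 members in the RefSeq table. Circles mark TTCNNNGAA, seen in Cish and Igfals, and the triangle marks CAAAACA, seen in Igfbp1.

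A match is a description of the letters and not of a bound site, and the other windows hold neither motif.

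The libraries differed in depth and in make-up, and the values below are to be read with that. Low FPKM values come in steps of whole fragments, and these gave an estimated depth of 6650000 to 13380000 fragments per NC mouse, 3900000 to 8440000 per IVF mouse and 2020000 to 2940000 per FET mouse, so all 3 FET libraries were shallower than the other 6. Nuclear protein-coding genes held from 4.36% of all FPKM in IVF mouse 2 and 4.41% in FET mouse 4 to 29.3% in IVF mouse 4, and 3 non-coding entries held 3.49% to 61.9%. Of the genes tested, FET mouse 2 listed 20.3% at 0 and FET mouse 4 listed 14.5%, against 2.28% to 5.43% in the other 7 mice. The number that ends each library's label ran from 67 to 76 in 7 libraries and was far higher in NC mice 5 and 6, so a comparison with NC within the first range rests on 1 NC mouse. The 10 hepatocyte markers, Alb among them, were present in the samples, with a summed FPKM of 10211 to 21316 in NC, 3659 to 34437 in IVF and 4759 to 17332 in FET. The 6 endothelial markers summed to 7.31 to 13.5 in NC, 3.41 to 7.20 in IVF and 5.83 to 6.77 in FET. As deposited, these sums were below NC in all 6 transferred mice, and the other 4 lists overlapped between FET and NC. Of all genes tested, 17.1% lay wholly below NC in FET and 5.46% in IVF. The marker sums take no account of the share of nuclear protein-coding FPKM, so no endothelial difference is read from them. The part of the marker levels in the results was not tested. None of the 44 markers of hepatocytes, Kupffer cells, endothelial, stellate, bile duct and blood cells was at 0 in every mouse. Fewer cells of a type and less RNA per cell cannot be told apart in whole liver.

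FPKM is scaled per length, so the 9 genes can be set in order. The mean FPKM over all 9 mice was 68.7 for Igf1, 26.9 for Igfbp4, 17.5 for Igfbp2, 8.92 for Ghr, 7.18 for Igfals, 3.63 for Socs2, 3.26 for Igfbp1, 2.39 for Stat5b and 1.92 for Cish. Igf1 had the highest mean in each group, but the order below it differed by group. Socs2 averaged 0.397 FPKM in NC, below Cish at 1.36, and Igfbp1 was lowest in FET, where Igfbp2 at 23.2 was above Igfbp4 at 17.5. Neighbours in that order overlapped widely between mice, since Igfbp4 ranged from 3.53 to 61.6 and Igfbp2 from 3.15 to 56.8. None of the 9 genes passed the test in any of the 3 comparisons, which used limma on log2(FPKM + 1) with all 3 groups in 1 fit and a Benjamini-Hochberg adjusted p under 0.05 over all 6755 genes. Among all genes, 16 (0.237%) passed in FET against NC, 4 (0.0592%) in IVF against NC and 6 (0.0888%) in FET against IVF. At an unadjusted p under 0.05, 1, 1 and 3 of the 9 members and 812, 275 and 271 of all genes stood apart in those comparisons. The members that did so were Igfbp1, Socs2 and Cish, of which the filter admitted Socs2 and Cish through the IVF group in which they are high, so that no result is read from their p-values. The 3 comparisons share mice, those against NC the same 3 controls, and are not independent of each other.

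**Figure D2:**
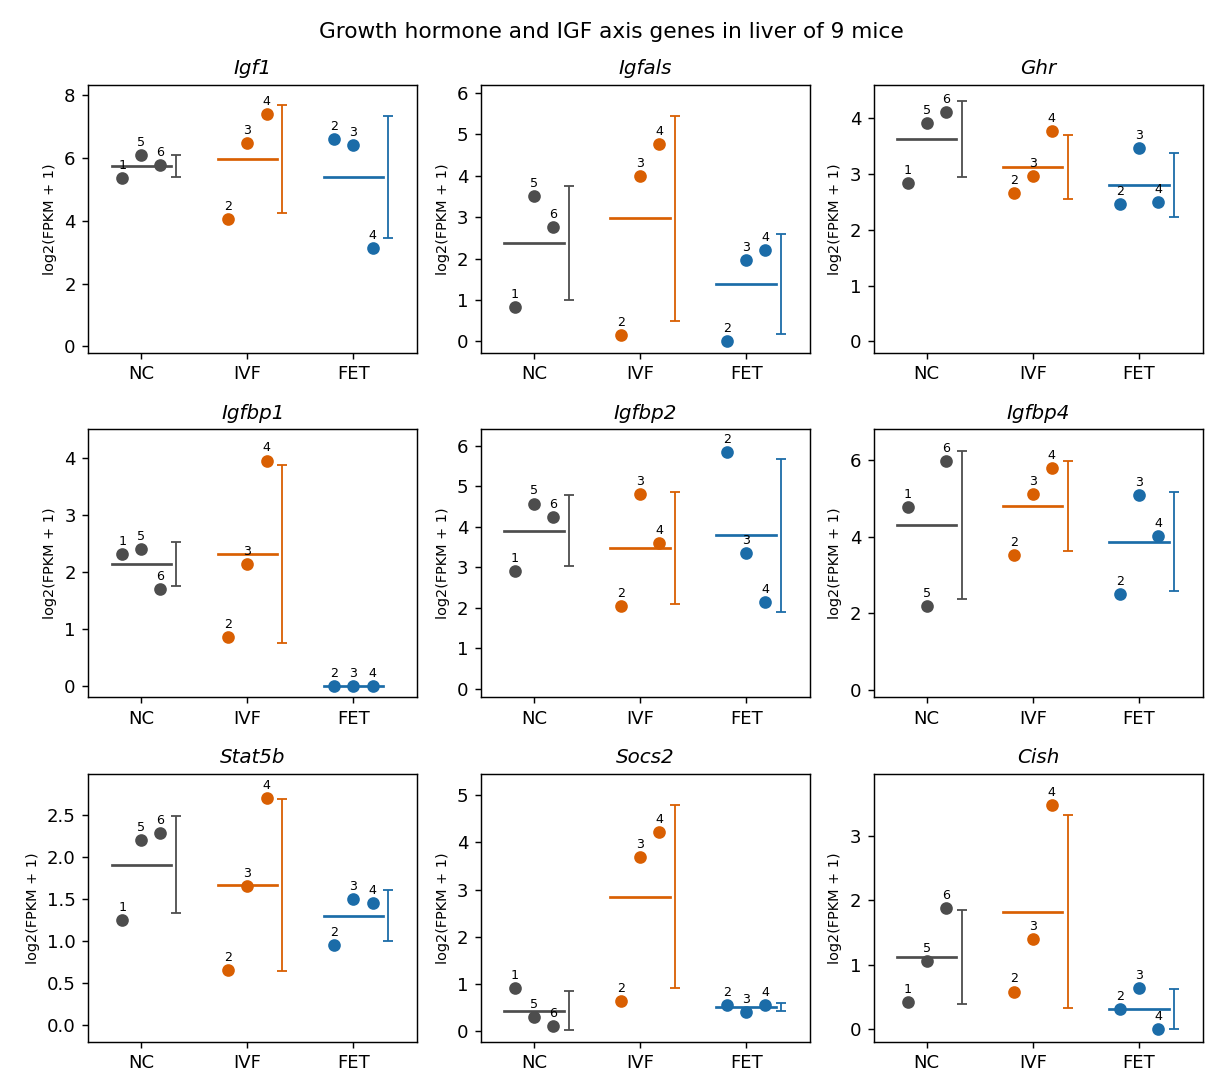
Level of each gene as log2(FPKM + 1) (y axis) in each mouse, numbered as in the labels, in the NC, IVF and FET groups, with the group mean as a line and the SD (n = 3) as a bar, left out where all values are 0. Igfbp1 is listed at 0 in all 3 FET mice, and Socs2 is high in IVF mice 3 and 4 and below 1 FPKM in the other 7 mice.

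Igf1 encodes the ligand of the axis, made for the circulation mainly by hepatocytes, and lies at chr10:87858265-87937042 on the plus strand (GENCODE vM21, GRCm38, as for all gene positions here). Its FPKM was 40.1, 66.9 and 53.7 in NC mice 1, 5 and 6, a mean of 53.6 ± 13.4 (SD, n = 3). It was 15.7, 87.7 and 167 in IVF mice 2, 3 and 4, a mean of 90.0 ± 75.4, and 95.4, 84.7 and 7.84 in FET mice 2, 3 and 4, a mean of 62.6 ± 47.8. The groups overlapped in every comparison, and the lowest mouse of each embryo transfer group, IVF 2 and FET 4, was the one with the smallest share of nuclear protein-coding FPKM in its group. On the log2(FPKM + 1) scale the difference of FET from NC was -0.36 with a standard error (SE) of 1.11 (adjusted p = 0.928), and IVF differed from NC by 0.23 (adjusted p = 1). When each library was rescaled so that the FPKM of its nuclear protein-coding genes summed to 1000000, Igf1 stood at 428, 485 and 343 in NC, 401, 802 and 723 in IVF and 1044, 655 and 173 in FET. Rescaled differences, here and below, were fitted with each library's coding total set to the mean coding total of all libraries instead. The pseudocount of 1 was added after that step, so they do not follow directly from the rescaled levels printed. The rescaled difference of FET from NC had the other sign, 0.25. On the rescaled levels IVF mouse 2 lay inside the NC range, and FET mouse 4 remained the lowest of all.

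Igfals (chr17:24865997-24882010, plus strand) encodes the acid-labile subunit, which joins IGF1 and IGFBP3 in the large complex of the blood and is made in the liver under growth hormone. Its FPKM was 0.789, 10.4 and 5.74 in NC mice 1, 5 and 6, and 0.108, 15.0 and 26.1 in IVF mice 2, 3 and 4. In FET it was listed at 0 in mouse 2 and stood at 2.90 and 3.61 in mice 3 and 4. IVF mice 3 and 4 were above all 7 other mice, and the 3 groups overlapped through the lowest mouse of each. The difference of FET from NC was -0.98 (SE 0.85, adjusted p = 0.688), that of IVF from NC 0.60 (adjusted p = 1) and that of FET from IVF -1.58 (unadjusted p = 0.0692, adjusted p = 1). With NC mouse 1 as the one control, the mouse with the lowest NC value, the difference of FET from NC was 0.55. Over the mice left out it ran from -1.74 without NC mouse 1 to -0.28 without FET mouse 2. Rescaled to nuclear protein-coding genes, it was -0.48.

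The receptor Ghr, at chr15:3317760-3583492 on the minus strand, was measured at 6.15, 14.1 and 16.3 FPKM in NC, at 5.29, 6.80 and 12.6 in IVF and at 4.48, 10.01 and 4.63 in FET, each in the order of the mouse numbers. Its group means were 12.2 ± 5.32, 8.21 ± 3.83 and 6.37 ± 3.15 FPKM (SD, n = 3). The means descended from NC to FET, but NC mouse 1 lay among the mice of both other groups. FET differed from NC by -0.82 (SE 0.81, adjusted p = 0.732), and IVF by -0.50 (adjusted p = 1). Rescaled to nuclear protein-coding genes, the range was 65.6 to 104 in NC, 54.5 to 135 in IVF and 49 to 102 in FET, so that no group stood apart on either scale.

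Stat5b (chr11:100780731-100850724, minus strand) encodes the transcription factor that carries the growth hormone signal to the nucleus. It was low, at 1.37, 3.57 and 3.85 FPKM in NC mice 1, 5 and 6, at 0.575, 2.13 and 5.50 in IVF mice 2, 3 and 4, and at 0.936, 1.82 and 1.73 in FET mice 2, 3 and 4. On these values the FET mice lay within the range of the IVF mice, and NC mouse 1 lay within the FET range. Rescaled to nuclear protein-coding genes, Stat5b stood at 14.6, 25.9 and 24.6 in NC and at 14.7, 19.5 and 23.9 in IVF. In FET it then stood at 10.2, 14.1 and 38.2, so that FET mouse 4 was the highest of all mice and FET mouse 2 the lowest. The difference of FET from NC was -0.61 as deposited (SE 0.63, adjusted p = 0.748) and -0.14 when rescaled. The other comparisons as deposited gave -0.24 and -0.37 (adjusted p = 1 in both). Its neighbour on the chromosome, Stat5a, is a near-identical paralog, and how the authors' counting divided reads between the pair is not given in the sources used here, so both levels are uncertain. Stat5a had a mean under the filter, with at most 1.27 FPKM in any mouse.

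Among the binding proteins, Igfbp1 had the clearest split between groups. IGFBP1 binds IGF1 in the circulation with rapid changes over a day of feeding and fasting, and its gene lies at chr11:7197782-7202546 on the plus strand and has a single annotated transcript of 1525 bases. Its FPKM was 3.99, 4.29 and 2.26 in NC mice 1, 5 and 6, and 0.807, 3.41 and 14.6 in IVF mice 2, 3 and 4. It was listed at 0 in all 3 FET mice. FET thus lay below every other mouse, while NC and IVF overlapped. On the log2(FPKM + 1) scale FET differed from NC by -2.14 (SE 0.64, unadjusted p = 0.00169, adjusted p = 0.124, place 92 of 6755 by p) and from IVF by -2.32 (unadjusted p = 0.000757, adjusted p = 0.301, place 17). IVF differed from NC by 0.18 (adjusted p = 1).

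The listed value of 0 for Igfbp1 has to be read against the depth. By the estimated depth, 1 fragment over the 1525 bases would give 0.325, 0.233 and 0.223 FPKM in FET mice 2, 3 and 4. The lowest NC level, 2.26 FPKM, would have given an estimated 6.97, 9.70 and 10.1 fragments in those libraries, and the NC mean of 3.51 would have given 10.8, 15.1 and 15.8. With the NC levels rescaled to nuclear protein-coding genes, the lowest would have given 4.07, 8.005 and 2.94 fragments in these mice and the mean 8.26, 16.3 and 5.97. These figures cover counting error only, since copies made by PCR are not independent molecules. In the other 6 mice the estimate behind the measured value was 10.4 to 86.8 fragments. Igfbp1 was 1 of 38 genes tested (0.563%) that were listed at 0 in all 3 FET mice and above 0 in the other 6 mice. FET mice 2 and 4 also listed the most genes at 0 of all mice, and an entry at 0 can be a failed estimate as well as a low level. The part of the depth in the Igfbp1 result was not tested. With a pseudocount of 0.1 in place of 1, the difference of FET from NC was -5.12 and passed the test (adjusted p = 0.0493), and over the other alternatives the adjusted p ran from 0.0863 to 1. For FET against IVF it ran from 0.0626 to 1 over all alternatives.

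Igfbp1 shares its stretch of chromosome 11 with Igfbp3, the main IGF carrier of the blood, at chr11:7206086-7213923 on the other strand. Igfbp3 was measured at 3.06, 2.26 and 4.16 FPKM in NC, at 0.929, 4.6 and 9.95 in IVF, and at 2.58, 2.63 and 0 in FET. FET mice 2 and 3, which listed Igfbp1 at 0, thus held Igfbp3 inside its NC range. Igfbp3 differed between FET and NC by -0.80 (SE 0.68, adjusted p = 0.68).

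Igfbp2 (chr1:72824503-72852474, plus strand), a binding protein that the liver makes in larger amounts when growth hormone is low, showed no split by group. Its FPKM was 6.48, 22.8 and 17.9 in NC mice 1, 5 and 6, 3.15, 26.8 and 11.04 in IVF mice 2, 3 and 4, and 56.8, 9.30 and 3.41 in FET mice 2, 3 and 4. FET held both the highest of all 9 values and the second lowest. The difference of FET from NC was -0.12 (SE 0.95, adjusted p = 0.973) as deposited and 0.45 when rescaled to nuclear protein-coding genes. FET mouse 2 alone set the high FET mean, 23.2 ± 29.3, and its level stood out further on the rescaled values, at 622 against 47.9 to 245 in the other 8 mice.

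Igfbp4 (chr11:99041244-99054392, plus strand), an inhibitory carrier of IGF1 that is cleaved by PAPP-A, came after Igf1 in the mean over all mice, and after Igfbp2 as well in FET. It stood at 26.3, 3.53 and 61.6 FPKM in NC mice 1, 5 and 6, at 10.4, 33.3 and 54.6 in IVF mice 2, 3 and 4 and at 4.69, 32.7 and 15.2 in FET mice 2, 3 and 4. The spread inside NC covered all 6 other mice. FET differed from NC by -0.44 (SE 1.01, adjusted p = 0.903) and from IVF by -0.94 (adjusted p = 1), and rescaling turned the first of these to 0.15.

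Socs2, a feedback inhibitor, had the largest difference of any member between IVF and NC. The filter admitted it only through IVF, the group where it is high. It (chr10:95385362-95417180, minus strand) encodes an SH2 protein that marks the growth hormone receptor for degradation, and mice without it grow large. Its FPKM was 0.882, 0.229 and 0.0796 in NC mice 1, 5 and 6, and 0.467, 0.337 and 0.479 in FET mice 2, 3 and 4. In IVF it was 0.551 in mouse 2, and 11.9 and 17.7 in mice 3 and 4. IVF mouse 2 was at the level of the other groups, and its 2 group mates were at least 13.5 times the highest of the other 7 mice. By the estimated depth and the longest transcript, the values of IVF mice 3 and 4 rest on about 228 and 292 fragments and those of the other mice on about 4.00 to 24.9.

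Socs2 differed between IVF and NC by 2.41 (SE 0.66, unadjusted p = 0.000692, adjusted p = 0.334) and between FET and IVF by -2.34 (unadjusted p = 0.000955, adjusted p = 0.333). Without IVF mouse 2, the one IVF mouse at the level of the other groups, they were 3.52 (adjusted p = 0.0455) and -3.45 (adjusted p = 0.0185), and over the other alternatives the adjusted p of these comparisons ran from 0.225 to 1. Since the filter admitted the gene through IVF, these values are a description and are not counted as a result. IVF mouse 2 is the library with the smallest share of nuclear protein-coding FPKM. Rescaled to those genes, Socs2 stood at 9.4, 1.66 and 0.509 in NC, at 14.1, 109 and 76.7 in IVF and at 5.11, 2.6 and 10.6 in FET, so that IVF lay above both other groups without overlap and mouse 2 only just did. FET and NC differed by 0.07 (adjusted p = 0.975). The split of IVF mice 3 and 4 from the rest was noticed after the values were seen. Both were above all 7 other mice in 519 of the 6755 genes (7.68%). Among the members the same held only for Socs2 and for Igfals, in which the lower of the pair was 1.44 times the highest other mouse.

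Cish (chr9:107296026-107302784, plus strand), an SH2 protein that is switched on by STAT5 and blocks its docking at the receptor, had the lowest mean over all 9 mice, though it was the lowest in none of the 3 groups taken alone. Its FPKM was 0.335, 1.08 and 2.68 in NC mice 1, 5 and 6, 0.497, 1.65 and 10.2 in IVF mice 2, 3 and 4, and 0.235, 0.547 and 0 in FET mice 2, 3 and 4. FET mouse 3, at 0.547, was above IVF mouse 2, at 0.497, so that the groups overlapped by that pair. Rescaled to nuclear protein-coding genes, Cish stood at 3.57, 7.79 and 17.1 in NC, at 12.7, 15.1 and 44.4 in IVF and at 2.58, 4.23 and 0 in FET. On that scale FET lay wholly below IVF, and it still overlapped with NC through NC mouse 1. FET differed from IVF by -1.51 (SE 0.63, unadjusted p = 0.0211, adjusted p = 1) and from NC by -0.80 (adjusted p = 0.648). Over the mice left out, the difference of FET from IVF ran from -2.14 without IVF mouse 2 to -0.68 without IVF mouse 4. The difference of IVF from NC was 0.71 (adjusted p = 1), and as for Socs2 the filter admitted the gene only through IVF. The exons of Cish overlap those of Gm17040 and Gm17041 on the other strand, and since it is not stated whether the counting used strand, their reads cannot be told apart from those of Cish.

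**Figure D3:**
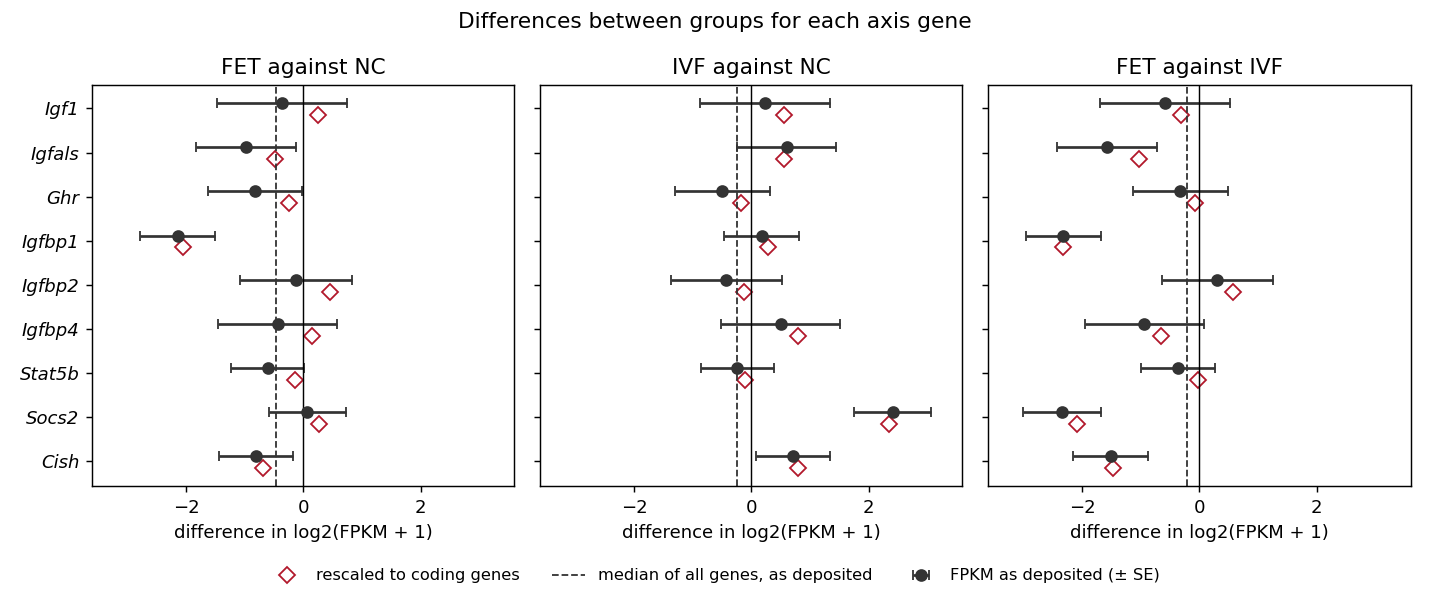
Difference in log2(FPKM + 1) (x axis) for each member in the 3 comparisons, as deposited (circles, with the standard error as a bar) and rescaled to nuclear protein-coding genes (diamonds), with the median of all genes as a dashed line. Igfbp1 lies near -2 in both comparisons of FET, and Socs2 lies near 2 above NC in IVF and as far below IVF in FET.

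Taken as a list, the 9 members had a median difference of -0.61 in FET against NC, beside -0.46 over all genes tested, and 8 of 9 were negative, beside 74.3% of all genes. In FET against IVF the median was -0.94 beside -0.20, and 8 of 9 were negative beside 65.4%. Socs2 (-2.34) and Cish (-1.51) were among the 8. The filter admitted both only through IVF, which favours a negative difference here. In IVF against NC the members had a median of 0.23, while that of all genes was -0.25, and 3 of 9 were negative beside 68.8%. Socs2 (2.41) and Cish (0.71) were among the 6 positive members, a sign that the filter favoured. The members' medians and signs in both comparisons with IVF are therefore a description and are not read as a result. Rescaling to nuclear protein-coding genes moved the median of all genes in FET against NC to -0.06. The members then had a median of -0.14, with 5 of 9 negative. In IVF against NC the same rescaling gave the members 0.55 and all genes -0.07, with 3 of 9 members negative beside 55.7%. In FET against IVF it gave -0.66 and 0.02, with 8 of 9 members negative beside 48.8% of all genes. Socs2 and Cish are counted in these values as well, so the limit set by the filter holds for them too. Single mice moved these medians as deposited. That of FET against NC was -0.94 without NC mouse 1 and -0.96 without FET mouse 3, beside -0.62 and -0.66 for all genes. That of IVF against NC was 0.045 without NC mouse 1, 1.14 without IVF mouse 2, 0.089 without IVF mouse 3 and -0.47 without IVF mouse 4. In that order, the medians of all genes were -0.41, 0.22, -0.32 and -0.63. That of the members in FET against IVF was -1.58 without IVF mouse 2, -1.54 without FET mouse 3 and -0.44 without IVF mouse 4. The medians of all genes were then -0.67, -0.40 and 0.16. In FET against NC, Igf1, Igfbp2 and Igfbp4 had the other sign under rescaling to coding genes, under median-ratio scaling and under quantile normalization, and the other 6 kept theirs.

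Groups without overlap were counted among the members. In FET against NC 1 of 9 lay wholly lower (Igfbp1) and none higher, beside 17.1% of all genes lower and 1.98% higher. In IVF against NC no member did, beside 5.46% lower and 0.77% higher. In FET against IVF 2 of 9 lay wholly lower (Igfbp1 and Socs2) and none higher, beside 2.56% and 1.27% of all genes. The filter admitted Socs2 only through IVF, which favours its lower place in FET, so the count in FET against IVF is a description. Rescaled to nuclear protein-coding genes, Igfbp1 again was the 1 member wholly lower in FET against NC and none was higher, beside 11.5% and 9.99% of all genes. Socs2 was then the 1 member wholly higher in IVF against NC and none was lower, beside 4.87% and 11.3%. In FET against IVF 3 of 9 were wholly lower (Igfbp1, Socs2 and Cish) and none higher, beside 6.01% and 6.72%. The filter admitted Cish, like Socs2, only through IVF. In FET against NC the members' share as deposited was below that of all genes. In FET against IVF their share of wholly lower genes was above that of all genes on both scales, with Socs2, and Cish when rescaled, counted. With 9 genes, neither is read as a result.

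Of 20 further genes of GH signalling (kinases, STATs, inhibitors, adaptors and nuclear partners), 12 passed the filter and none passed the test. All 12 differences of FET from NC were negative, with a median of -0.74, beside 74.3% and -0.46 for all genes. An unadjusted p under 0.05 was found for 2 of the 12, of which 1 is Socs3, and for 12% of all genes. The filter admitted 3 of the 12, Socs3 among them, only through NC, which favours a negative difference. Rescaled to nuclear protein-coding genes, 9 of the 12 were negative, with a median of -0.45, beside 53.5% and -0.06 for all genes. Jak2, the receptor's kinase, had a mean under the filter and lay between 0 and 1.21 FPKM. Socs3, a suppressor induced mainly by cytokines, had the largest difference, -1.49. Its FPKM was 3.66, 3.23 and 2.92 in NC, 1.13, 0.468 and 2.62 in IVF and 0.349, 0.492 and 0.718 in FET, so both embryo transfer groups lay below NC without overlap as deposited, beside 17.1% of all genes in FET and 5.46% in IVF. Rescaled to nuclear protein-coding genes, it stood at 39.0, 23.4 and 18.6 in NC, at 28.9, 4.28 and 11.4 in IVF and at 3.82, 3.81 and 15.8 in FET, so that IVF mouse 2 lay inside the NC range and FET remained below it. Both separations are a description, since the filter admitted Socs3 only through NC. Sh2b1, an adaptor that binds JAK2, differed by -1.41 (adjusted p = 0.426).

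Of 15 other genes of the IGF system, 4 passed the filter and none passed the test. Igf2, the fetal ligand, was listed at 0 in all 9 mice, and Igf1r, the IGF1 receptor, which hepatocytes carry little of, did not exceed 0.257 FPKM. Insr, the insulin receptor, stood at 1.96, 0.204 and 0.250 FPKM in NC, at 0.390, 2.51 and 5.18 in IVF and at 2.17, 3.96 and 0.407 in FET. NC mouse 1 lay with the higher mice of the other groups, and the difference of FET from NC was 0.77 (SE 0.63, adjusted p = 0.666). Igfbp5, the neighbour of Igfbp2 on chromosome 1, differed by 0.12 (adjusted p = 0.959), and Igfbp7, which is counted with the family by its sequence, by 0.03.

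The pattern of growth hormone release over the day sets the sex bias of many liver genes, so a list of 35 such targets was added, of which 20 passed the filter. None passed the test in any comparison. In FET against NC 19 of the 20 were negative, with a median of -0.70, beside 74.3% and -0.46 for all genes. The 20 include 3 female-biased genes that the filter admitted only through NC, which favours a negative difference. An unadjusted p under 0.05 was found for 1 of the 17 male-biased genes, beside 12% of all genes. Rescaled to nuclear protein-coding genes, 13 of the 20 were negative, with a median of -0.14, beside 53.5% and -0.06 for all genes. All 17 male-biased genes passed the filter, against 3 of 18 female-biased genes. Of the male-biased genes 16 were negative, with a median of -0.59, but 10 of 17 and a median of -0.07 remained after rescaling to nuclear protein-coding genes. The largest difference among them was that of Cyp4a12b, a fatty acid hydroxylase, at -2.37 (unadjusted p = 0.012, adjusted p = 0.278), with 14.3, 18.4 and 37.4 FPKM in NC, 5.24, 12.1 and 24.9 in IVF and 0, 13.0 and 4.89 in FET. Cyp4a12b has a near-identical copy, Cyp4a12a, and its share of their common reads is uncertain.

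The 3 female-biased genes that passed the filter did so only through NC, where they were highest, so that a lower level in the embryo transfer groups was largely fixed by the filter and their values are a description. Cyp2a4, a steroid hydroxylase, stood at 1.56, 5.83 and 5.80 FPKM in NC, at 0.270, 0.384 and 4.25 in IVF, and was listed at 0 in all 3 FET mice. Its difference of FET from NC was -2.30 on the log2(FPKM + 1) scale. Cyp2b9 stood at 0.886, 8.08 and 2.37 FPKM in NC and at 0.980 in IVF mouse 2, and was listed at 0 in the other 5 mice. It differed from NC by -1.95 in FET and by -1.62 in IVF. Fmo2 differed by -1.2 in FET. Both Cyp genes belong to families of close copies, and shared reads make their values uncertain, beside the limit of depth given for Igfbp1.

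**Figure D4:**
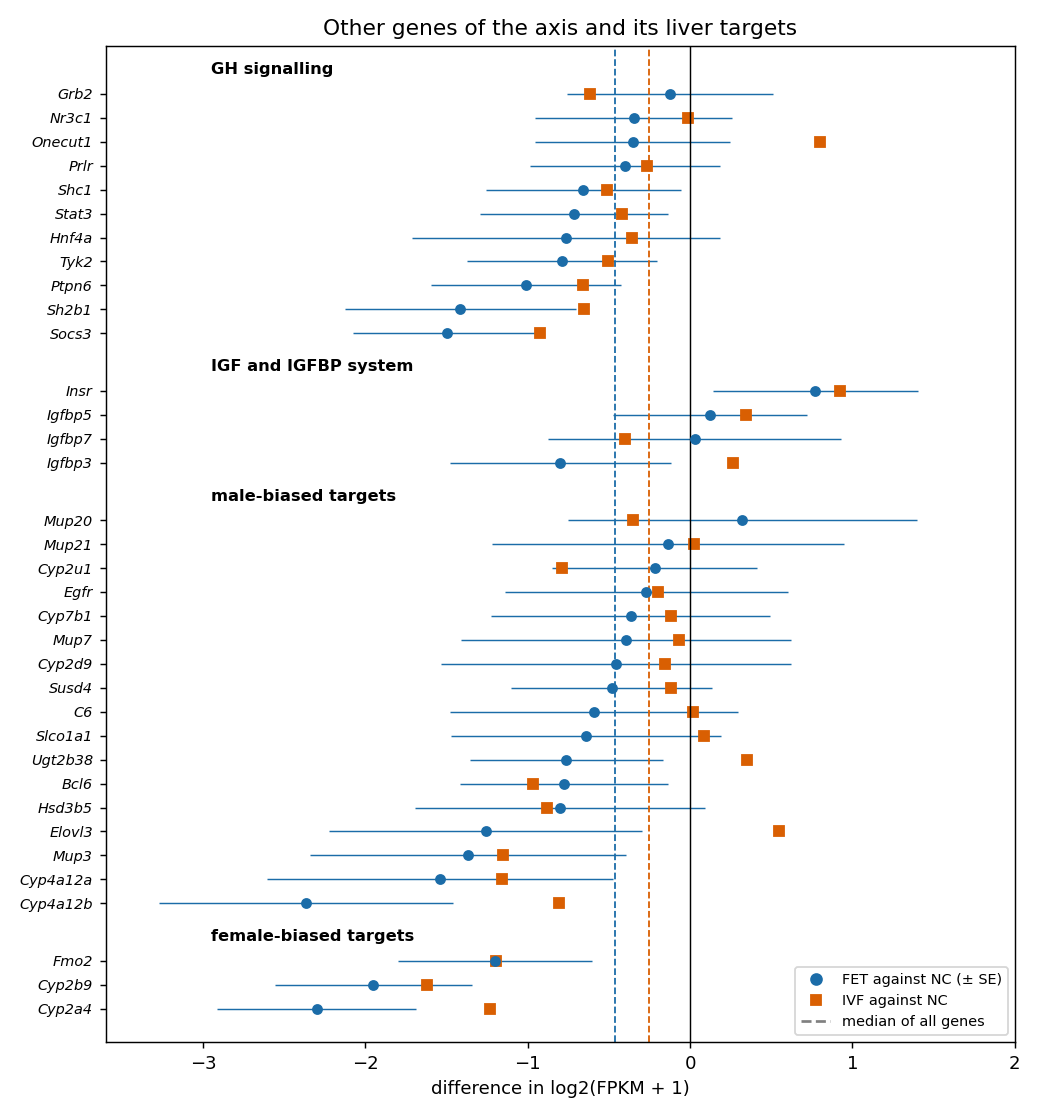
Difference in log2(FPKM + 1) (x axis) of the tested genes on the 3 further lists, 1 gene of GH signalling left out, for FET against NC (circles, with the standard error as a bar) and IVF against NC (squares), with the medians of all genes as dashed lines. All genes of GH signalling shown lie left of 0 in FET against NC, as do 16 of 17 male-biased and all 3 female-biased genes, and none passed the test. The filter admitted the 3 female-biased genes only through NC.

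The genes whose levels followed those of Igf1 most closely across the 9 mice, among 5737 protein-coding genes tested, were Timm23, Sun2, Cd302, Tprgl and Rsl1d1, with a Pearson r of log2(FPKM + 1) of 0.99, 0.986, 0.982, 0.982 and 0.981. For Igfbp1 they were Tefm, Fig4, Smim27, 1810009A15Rik and Selenop, with an r of 0.99, 0.977, 0.965, 0.96 and 0.957. Genes of 1 library share its scale and depth, and the median r over all these genes was 0.62 with Igf1 and 0.496 with Igfbp1. Among the members Igf1 was closest to Igfbp2, with an r of 0.716, and Igfbp1 to Cish, with 0.806.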

How the data were processed

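Liver RNA-seq of 9 mice was analysed from 1 deposited table of FPKM values, which the authors computed per gene and listed by Ensembl identifier. The submitters' processing notes name FastQC 0.11.5, STAR 2.5.3a, StringTie 1.3.1c and DESeq2 1.16.1, without their roles. The genome build, the annotation and the use of strand are not given in the sources used here. Of 55335 identifiers, 55154 matched GENCODE vM21 (GRCm38), which gave symbols and positions, and 181 did not. Groups came from the labels. The table holds no counts, so depth was estimated from the steps of low values (up to 8 fragments, tolerance 2%).

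Differences were tested, two-sided, on log2(FPKM + 1) with limma 3.58.1 (R 4.3.3), with a variance trend and all 3 groups in 1 fit, over 6755 genes whose FPKM averaged 1 or more. Because of the pseudocount of 1, such a difference understates the change of low genes. Adjusted p-values (Benjamini-Hochberg) under 0.05 passed. The litter or culture that each sequenced mouse came from is not stated, so p-values measure the spread between these mice. For each gene that spread is in part borrowed from all genes tested, through the variance trend. The fit was tested on simulated data of FET against NC with 6755 genes. There it recovered 60.6% of genes changed by a log2 value of 3, with 4.64% false calls. It recovered 99% of those changed by 6, with 4.76% false calls, and called none without a change. Whether these rates hold for the libraries measured here was not tested. In those, log2(FPKM + 1) cannot fall below 0, so a low gene cannot drop by 3 or 6. Igfbp1, listed at 0 in every FET mouse, differed from NC by only -2.14.

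The members and lists were chosen with earlier results of these data known. Named were all members, per list the 3 tested genes with the largest difference between FET and NC, and the 5 genes most like Igf1 and Igfbp1. Of these, 1 is not reported here. Jak2, Stat5a, Igf2, Igf1r, Igfbp7, Fmo2 and Cyp4a12a were named outside this rule, for their role or after their values were seen. Alternatives were a pseudocount of 0.1, no filter, 3 other scalings, a fit of only the groups compared, libraries 67 to 76, a replicate block and leaving out each mouse.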

Additional observations from a re-analysis of the deposited data

How the results depend on the processing

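No member passed the test in the comparison of FET with NC under any alternative but a pseudocount of 0.1, which called 1, Igfbp1. Leaving out 1 mouse at a time gave 0 to 1 members called in IVF against NC and in FET against IVF, the 1 being Socs2 without IVF mouse 2, a gene that the filter admitted only through IVF. The members' median in FET against NC was -0.19 with median-ratio scaling, -0.14 rescaled to nuclear protein-coding genes, -0.10 with quantile normalization and -0.037 within label numbers 67 to 76, where NC mouse 1 is the one control and is assumed to vary like the other groups. The median in IVF against NC, with Socs2 and Cish counted, ran from -0.47 to 1.14 over the mice left out. That of all genes ran from -0.63 to 0.22. The sign in FET against NC turned, in the order median-ratio, coding genes and quantile, for Igf1 (0.13, 0.25, 0.031), Igfbp2 (0.33, 0.45, 0.25) and Igfbp4 (0.037, 0.15, 0.011). Within numbers 67 to 76 it turned for Igf1 (0.023), Igfals (0.55), Igfbp2 (0.88), Stat5b (0.052) and Socs2 (-0.40), and in IVF against NC for Ghr (0.29), Igfbp1 (-0.000443), Igfbp2 (0.58) and Stat5b (0.42). Over the mice left out, FET against NC ran from -0.96 to 0.77 for Igf1, -1.15 to 0.70 for Igfbp2, -1.50 to 0.39 for Igfbp4 and -0.093 to 0.31 for Socs2. IVF against NC ran from -0.47 to 1.19 for Igf1, -0.29 to 2.01 for Igfals, -0.65 to 0.91 for Igfbp1, -1.08 to 0.29 for Igfbp2, -0.56 to 1.33 for Igfbp4, -0.75 to 0.27 for Stat5b and -0.12 to 1.33 for Cish. FET against IVF ran from -1.54 to 0.53 for Igf1, -0.73 to 1.13 for Igfbp2 and -0.87 to 0.15 for Stat5b. The cause of these turns was not tested, and none of the values that turned had passed the test. Of 429 recomputed values, 377 kept their direction and their side of the threshold or moved within the spread.

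The numbers 2, 3 and 4 of IVF and FET mice give no shared litter, and deviations of mice with the same number correlated at -0.13, 0.02 and -0.26, so they were not taken as pairs. With a replicate block for the number, in a fit of IVF and FET alone, 0 members were called, the median was -0.94 and 2 of all genes were called, against 0 in a fit of these groups without the block. The depth of the FET libraries limits what can be said of genes near 1 FPKM.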
